A study of Mus musculus with 24 samples.

Results

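Amino acid transporters of 7 solute carrier families (SLC1, SLC3, SLC6, SLC7, SLC36, SLC38 and SLC43) were read out in the hippocampus of neonatal mice after morphine and stress. The members were all non-control probes of the mRNA array whose gene name is a numbered member of these families, leaving out the glial glutamate transporters Slc1a2 and Slc1a3. This gave 72 probes for 57 genes, out of 55681 probes and 36163 gene names on the array. There was 1 probe for 44 genes, 2 probes for 11 genes and 3 probes for 2 genes, Slc38a1 and Slc38a9.

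Hippocampal mRNA of male C57BL/6 mice was measured at postnatal day 9 on 15 1-colour arrays, 5 per group, with both hippocampi of a single animal on each array. Con pups were untreated, stayed with the dam and were handled as little as possible. MS2 and MS5 pups received morphine at 2 or 5 mg/kg in the morning and in the afternoon from postnatal day 5, and were also taken from the dam, isolated in a warmer and exposed to nitrogen and then oxygen as a simulated apnea. No group had stress alone or morphine alone, so a difference from Con spans the drug, the injections, the separation and the apnea, which cannot be told apart. MS5 and MS2 differ by the morphine dose only, as far as the labels say.

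Transporters of these families move amino acids and their derivatives across membranes, mostly by coupling them to sodium, chloride or protons, or by exchanging one amino acid for another. SLC1 carriers take up glutamate or exchange small neutral amino acids. The SLC6 family ends transmission by GABA, glycine and the monoamines at synapses, and also carries taurine, proline, creatine and neutral amino acids. SLC7 carriers move large neutral, cationic or sulfur amino acids, and those of them that are light chains need an SLC3 heavy chain to reach the surface. SLC38 carriers pass glutamine from astrocytes to neurons for the synthesis of glutamate and GABA, SLC36 carriers move small amino acids with protons out of lysosomes, and SLC43 carriers let large neutral amino acids out of cells.

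The library labelled MS2 replicate 4 and that labelled MS5 replicate 9 went against their labels, and that of MS2 replicate 5 was dim. On MS2 replicate 4 the mean log2 level of 11 markers of hippocampal principal neurons was 10.67, against 12.55 to 13.02 on the other 14 arrays. On this array the mean of 14 markers of hypothalamus and thalamus was 10.53, against 8.08 to 9.53 on the others, and Th, the first enzyme of dopamine synthesis, was at 11.84 against 9.69 to 10.46. MS5 replicate 9, labelled male, had Xist at 11.34 against 5.89 to 6.08 elsewhere and the Y-linked gene Eif2s3y at 6.77 against 12.11 to 12.64. MS2 replicate 5 had a median spot signal of 50 intensity units, against 99 to 126 on the other arrays. Every array stayed in the analysis, and results that rest on the library labelled MS2 replicate 4 or MS5 replicate 9 are also given without it. The arrays lay on 2 slides, each of which held all 3 groups.

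In MS5 against Con, 6 of the 72 probes (8.33%) had an unadjusted p under 0.05 by limma, against 3.91% of all probes on the array. The 3 higher probes included those of Slc7a5 and Slc36a1, against 1.47% of all probes called higher. The 3 lower probes stood for Slc7a7, Slc38a5 and Slc38a11, against 2.44% of all probes called lower. With all arrays in the fit, none of the 72 probes passed the study's threshold of more than 1.5-fold with p under 0.05, which 0.228% of all probes did. None had a Benjamini-Hochberg adjusted p under 0.05, and none of all probes did. The log2 differences of the 72 probes ran from -0.21 to 0.56, with a median of 0.001 beside 0 for all probes, and 37 were above and 35 below 0. Markers of the choroid plexus, which secretes cerebrospinal fluid, moved with this comparison: 18 of 20 were lower in MS5 than in Con with an unadjusted p under 0.05. Of all genes, 4.24% were called with 1 probe per gene. The paper reports several of these markers, such as Aqp1, Calml4, Cldn2 and Folr1, as lower in MS5 on these same arrays. The count is thus no independent test. By the exact permutation test the 18 had p from 0.00794 (Steap1) to 0.0952 (Aqp1 among others). The mean log2 level of the 20 markers ran from 8.76 to 11.52 in MS5, 11.13 to 12.07 in Con and 11.18 to 11.78 in MS2. In MS5 it was lowest on replicates 14 (8.76) and 9 (9.58). The part of choroid plexus tissue in the transporter values was not tested.

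In MS2 against Con, 4 of the 72 probes (5.56%) had p under 0.05, against 4.17% of all probes. Of these, 3 were higher, those of Slc7a5 and Slc36a1 among them, against 2.05% of all probes called higher, and that of Slc7a7 was lower, against 2.12% called lower. In MS5 against MS2 there were 3 probes (4.17%), against 3.97% of all probes. A pair of Slc38a9 probes was higher in MS5, against 1.72% of all probes, and Slc38a5 was lower, against 2.26%. None passed 1.5-fold with p under 0.05 in either comparison, which 0.0233% and 0.129% of all probes did. No member probe was lower on all MS2 arrays than on all Con arrays (0.390% of all probes were). Between MS5 and MS2 no member's groups were apart in either direction, as 0.241% (higher) and 0.384% (lower) of all probes were. The smallest adjusted p of a member was 0.97 in MS2 against Con and 1 in the other 2 comparisons. Both comparisons with Con use the same 5 Con arrays, so that their counts are not independent of each other.

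The precision was set by the 5 arrays of a group. A total of 61 member probes were well above background throughout at least 1 group. Of these, 53 had a 95% interval of the MS5 minus Con difference that lay within 1.5-fold in both directions. The other 8 stood for Slc6a3, Slc6a4, Slc6a9, Slc6a11, Slc6a12, Slc6a13 and Slc7a5. For MS2 against Con the count was 52 and for MS5 against MS2 it was 55. Without MS2 replicate 4 the counts for MS5 against Con, MS2 against Con and MS5 against MS2 were 58, 58 and 56, and without MS5 replicate 9 they were 51, 51 and 53.

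**Figure D1:**
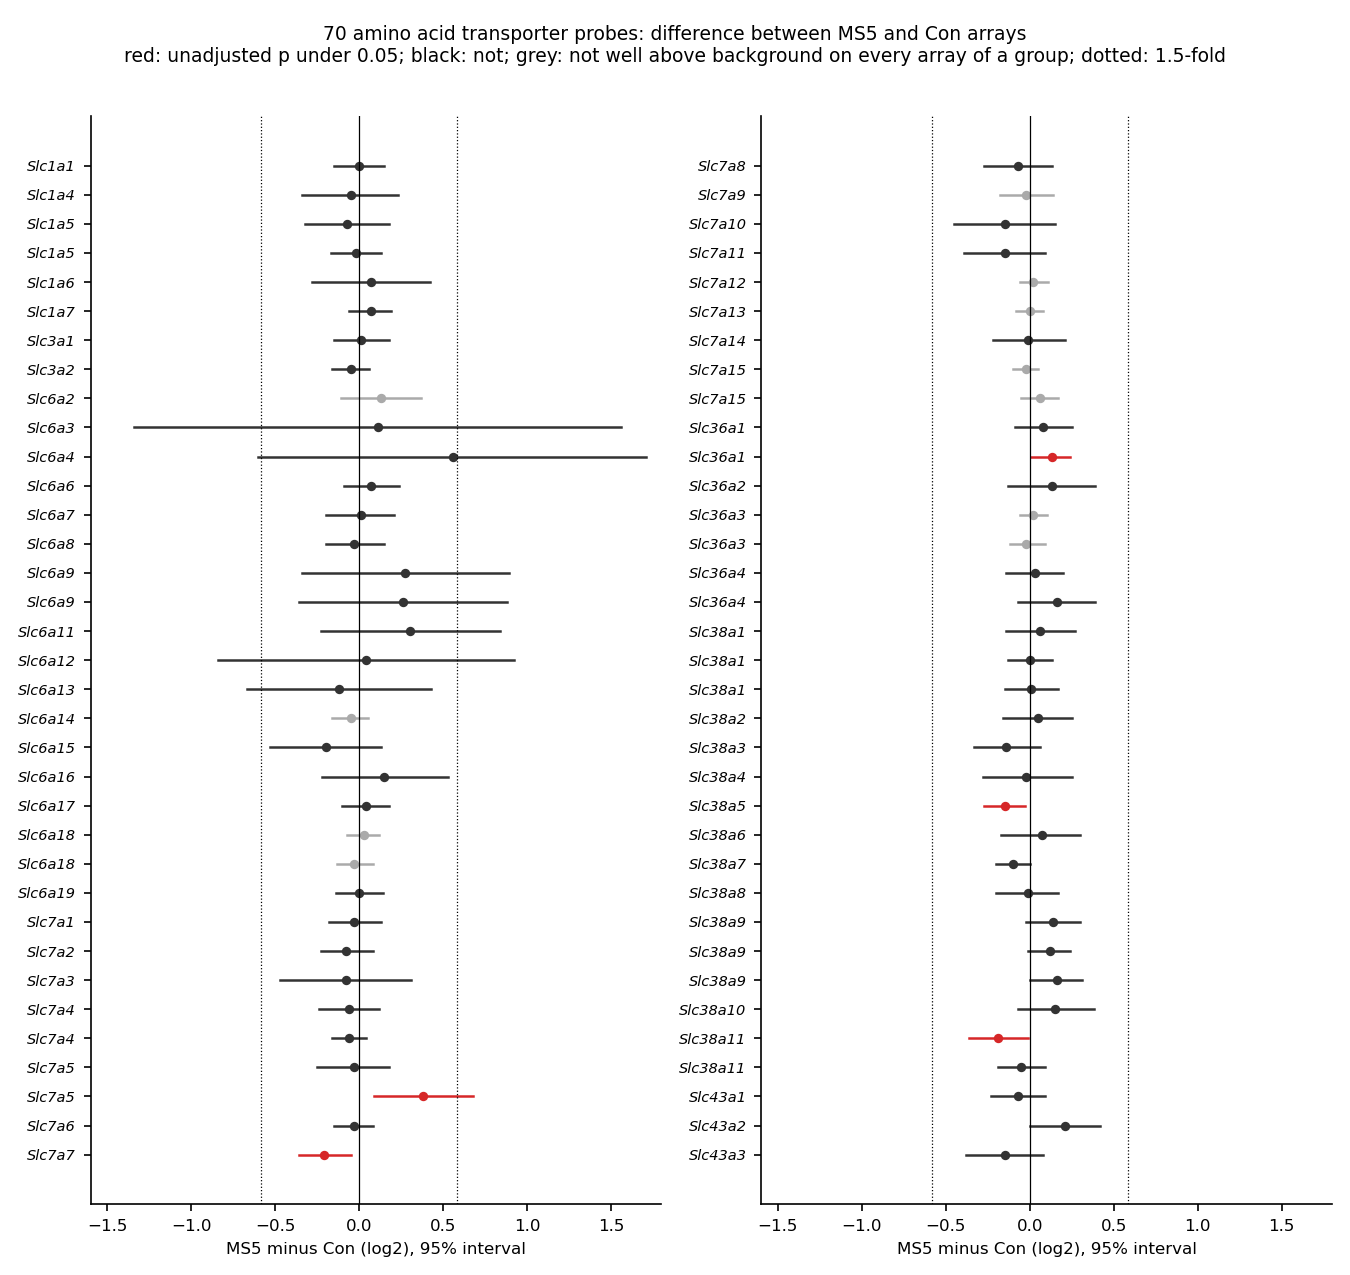
Difference in log2 level, MS5 minus Con, of 70 of the 72 transporter probes, with its 95% interval from limma (5 arrays per group). Red marks an unadjusted p under 0.05, grey a probe that no group had well above background throughout, and the dotted lines mark 1.5-fold. The 5 red probes lie between -0.21 and 0.38, and the widest intervals belong to Slc6a3, Slc6a4, Slc6a12, Slc6a9 and Slc6a13.

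Most of these transporters were well above background in the P9 hippocampus. The scanner software put 58 of the 72 probes (80.6%) well above background on all 15 arrays, against 65.2% of all probes. For 7 probes this held on some arrays and for 7 on none. Slc6a14, Slc6a18, Slc7a12 and Slc7a13 had no probe above background on any array. The probe of Slc6a2, the noradrenaline transporter, was above background on 4 of 15 arrays. No probe on the array carried the name of Slc6a5, the neuronal glycine transporter.

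The large neutral amino acid transporter Slc7a5 (LAT1), which brings leucine, tryptophan and also L-DOPA across the blood-brain barrier, had the largest difference from Con among the called probes, at 1 of its 2 probes only. The first 30 bases of both 60-base probes follow, since the probes gave different values. They lie on the minus strand of chromosome 8, at chr8:124430996-124431055 and chr8:124405136-124405195 of the mouse build mm9.
Slc7a5 A_55_P2017972: tagtcttcgccacctacttgctcaagccgg
Slc7a5 A_55_P1973941: gtggttataatgtcttttactattgtatta

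At the Slc7a5 probe A_55_P2017972 the log2 levels of the 5 Con arrays were 9.06, 9.13, 9.14, 9.22 and 9.35. The MS2 arrays were at 9.26, 9.27, 9.38, 9.45 and 10.09, and the MS5 arrays at 9.37, 9.44, 9.47, 9.73 and 9.80. All MS5 arrays thus lay above all Con arrays, which held for 0.305% of all probes, while MS2 and Con overlapped. The highest of the 15 values was that of MS2 replicate 4. The log2 difference was 0.38 (SE 0.14, 1.3-fold) for MS5 minus Con, with p = 0.0145 by limma, 0.00794 by the exact two-sided permutation test (the smallest p it can give) and an adjusted p of 1. For MS2 minus Con it was 0.31 (p = 0.0429, exact p = 0.0317), and 0.16 without MS2 replicate 4 (95% interval -0.03 to 0.35). Without it, MS5 minus Con was 0.38 (0.20 to 0.56), and without MS5 replicate 9 it was 0.34 (0.02 to 0.66). Within slide 1 the MS5 minus Con difference was 0.27 (0.06 to 0.49), and within slide 2 it was 0.46 (-0.15 to 1.07).

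The other Slc7a5 probe, A_55_P1973941, did not show this. Its Con arrays were at 11.01, 11.01, 11.09, 11.32 and 11.39 and its MS5 arrays at 10.94, 11.01, 11.17, 11.23 and 11.30. The groups overlapped throughout, and the difference was -0.03 for MS5 minus Con (95% interval -0.25 to 0.18) and -0.08 for MS2 minus Con (-0.29 to 0.14). The starts of the probes are 25860 bases apart.

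Slc3a2, the heavy chain (4F2hc, CD98) that LAT1 pairs with, differed from Con by -0.05 in MS5 (95% interval -0.16 to 0.06) and by -0.01 in MS2. Slc3a1, the heavy chain of the kidney cystine transporter, differed by 0.01 in MS5. Slc7a8 (LAT2), the other large neutral exchanger, differed by -0.07 (-0.27 to 0.13).

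Slc7a7 (y+LAT1), which exports cationic amino acids such as arginine in exchange for neutral ones, was lower in both treated groups. Its probe A_51_P472249 lies on the minus strand at chr14:54989166-54989225 of mm9 and is shown because its promoter is also described in a later paragraph.
Slc7a7 A_51_P472249: ctctttcctttacaagggccaacaatgctc

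The log2 levels of Slc7a7 were 9.89, 10.01, 10.06, 10.10 and 10.12 in Con. They were 9.72, 9.84, 9.92, 9.92 and 9.97 in MS2 and 9.66, 9.69, 9.83, 9.98 and 10.00 in MS5. The ranges overlapped only through the lowest Con array, replicate 15. The difference was -0.21 for MS5 minus Con (SE 0.07, p = 0.0131, exact p = 0.0397) and -0.16 for MS2 minus Con (p = 0.044, exact p = 0.0317). The MS5 difference had p under 0.05 with any 1 array left out, with a range of -0.25 to -0.16. Within slide 1 it was -0.10 (95% interval -0.28 to 0.08), and within slide 2 it was -0.31 (-0.61 to -0.01). The MS2 difference had p above 0.05 in 7 of the 15 leave-one-out fits (Con replicate 16, 17, 18 or 19, MS2 replicate 4 or 7, or MS5 replicate 8), with a range of -0.20 to -0.12. Slc7a7 is known from macrophages, and the mean level of 10 microglial markers ran from 11.79 to 12.17 in Con and from 11.79 to 12.14 in MS5, with none of the 10 called. Whether they have a part in the result was not tested.

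The remaining SLC7 and SLC43 carriers had no call in any of the 3 comparisons. The cationic transporter Slc7a1 (CAT1) differed from Con by -0.03 in MS5. Slc7a10 (Asc-1), which exchanges D-serine and glycine, and Slc7a11 (xCT), the cystine-glutamate exchanger, each differed by -0.15 (95% intervals -0.45 to 0.15 and -0.39 to 0.09). Slc7a14 differed by -0.01. Of the SLC43 carriers, Slc43a2 (LAT4), which lets large neutral amino acids out of cells, was 0.21 above Con in MS5 (p = 0.0528, exact p = 0.0317). Slc43a3, which carries nucleobases, differed by -0.15 (-0.38 to 0.08).

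Slc43a2 had a call in MS5 when MS2 replicate 4 or MS5 replicate 9 was left out. All groups share 1 estimate of the spread in the fit, so an MS2 array bears on this comparison too. The Slc43a2 Con arrays were at 10.54, 10.62, 10.66, 10.76 and 10.78 and the MS5 arrays at 10.68, 10.85, 10.88, 10.99 and 11. The lowest MS5 array, replicate 9, was the one that overlapped with Con. The MS2 arrays were at 10.65, 10.78, 10.78, 10.84 and 11.27, the last being replicate 4. The difference of MS5 from Con was 0.21 (95% interval 0.07 to 0.35) without MS2 replicate 4, 0.26 (0.04 to 0.48) without MS5 replicate 9 and 0.26 (0.13 to 0.39) without both.

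**Figure D2:**
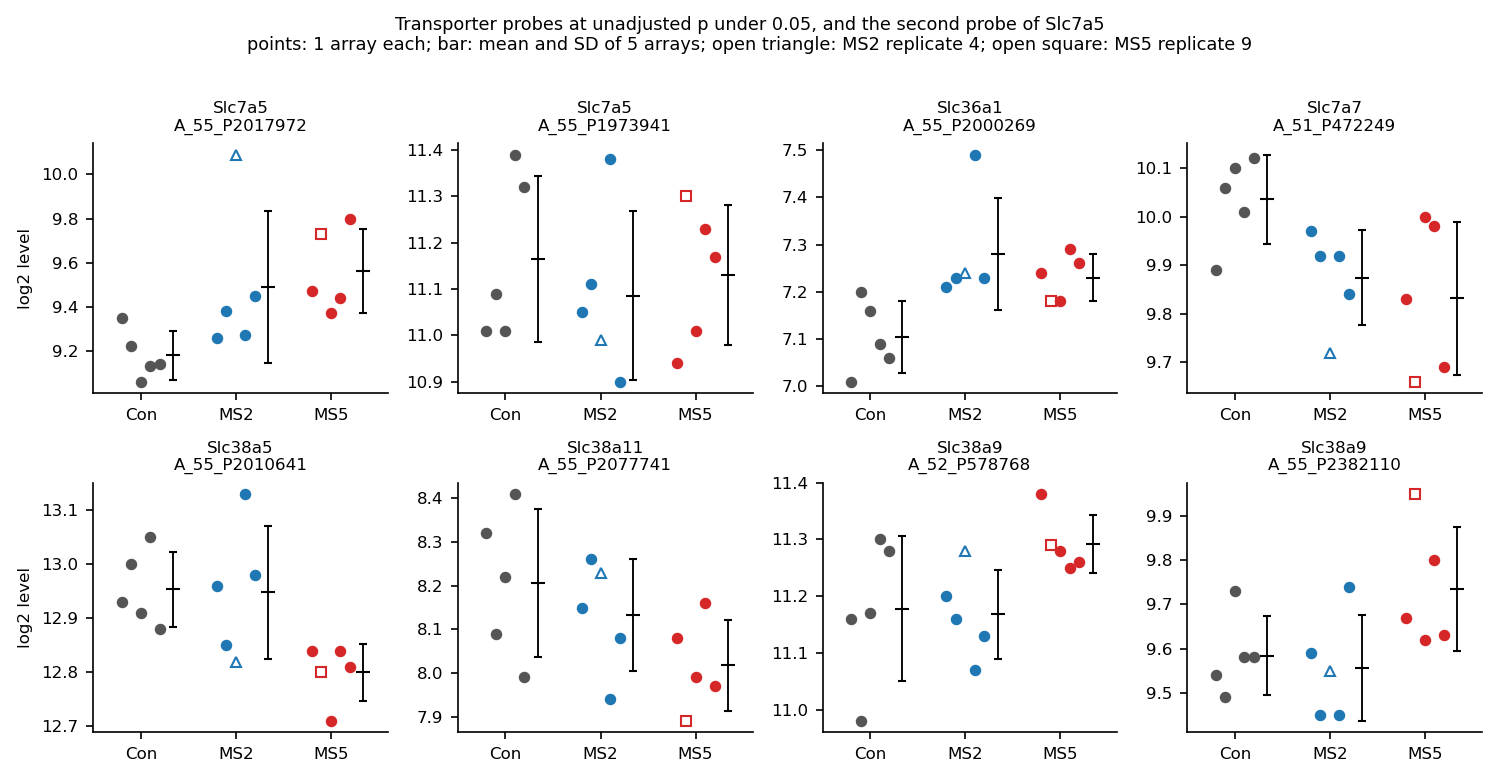
Log2 level on each of the 15 arrays at 7 called probes and at the second probe of Slc7a5, with the mean and SD of each group (5 arrays per group). The open triangle is MS2 replicate 4 and the open square MS5 replicate 9. At Slc7a5 A_55_P2017972 the lowest MS5 array (9.37) lies above the highest Con array (9.35), and at Slc38a5 the highest MS5 array (12.84) lies below the lowest Con array (12.88).

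Slc6a11 (GAT-3), the GABA transporter of astrocytes, was high on a single MS2 array and moderately high on most MS5 arrays. Its probe at chr6:114199514-114199573 (plus strand, mm9) starts as follows.
Slc6a11 A_51_P271311: acagatccctgatgtctgtcactatagaca

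The Slc6a11 levels were 10.52, 10.74, 10.78, 10.86 and 10.95 in Con. In MS2 they were 10.66, 10.74, 10.81, 10.82 and 12.28, the last in replicate 4, and in MS5 they were 10.67, 10.97, 11.15, 11.19 and 11.38. Thus 4 of 5 MS5 arrays lay above all Con arrays, and replicate 9 did not. The difference of MS5 from Con was 0.30 (SE 0.25, p = 0.246, exact p = 0.0635). With MS2 replicate 4 left out, which narrows the shared spread, it was 0.30 (95% interval 0.06 to 0.54), and without MS5 replicate 9 as well it was 0.40 (0.21 to 0.60). MS2 minus Con was 0.29 with replicate 4 and -0.01 without it (-0.27 to 0.24). The mean of 10 astrocyte markers ran from 13.21 to 13.42 in Con and from 13.14 to 13.42 in MS5. In bulk hippocampus, more RNA per cell and more cells of the type that carries it cannot be told apart.

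Slc6a12 (BGT1) and Slc6a13 (GAT-2), carriers of GABA, betaine and taurine known from the leptomeninges and vessels of the brain, were among the most variable members. Their SD within groups was higher than that of 99.4% and 97.9% of all probes. Slc6a12 was at 7.49, 8.86, 9.09, 9.50 and 9.57 in Con and at 7.88, 8.61, 9.12, 9.39 and 9.72 in MS5. Slc6a13 was at 10.42, 11.57, 11.58, 11.83 and 12.08 in Con and at 10.76, 11.23, 11.51, 11.64 and 11.73 in MS5. The lowest array was Con replicate 19 for both genes, and the second lowest was MS5 replicate 8 for both.

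The same arrays, Con replicate 19 and MS5 replicate 8, also had the lowest mean level of 14 markers of meninges and vascular leptomeningeal cells, at 10.84 and 10.95 against 11.20 to 12.05 on the other 13 arrays. The marker means ran from 10.84 to 12.04 in Con, 11.28 to 12.05 in MS2 and 10.95 to 11.88 in MS5, and all 14 markers were well above background. Of these markers 1 was called lower in MS5 than in Con at unadjusted p under 0.05 and none was called higher. The median difference over the list was -0.21, and 4.24% of all genes were called with 1 probe per gene. The part that meningeal tissue has in Slc6a12 and Slc6a13 was not tested. The difference of MS5 from Con was 0.04 for Slc6a12 (95% interval -0.84 to 0.92) and -0.12 for Slc6a13 (-0.67 to 0.43). Without Con replicate 19, Slc6a13 was at -0.39 (-0.78 to 0) with an unadjusted p just under 0.05.

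**Figure D3:**
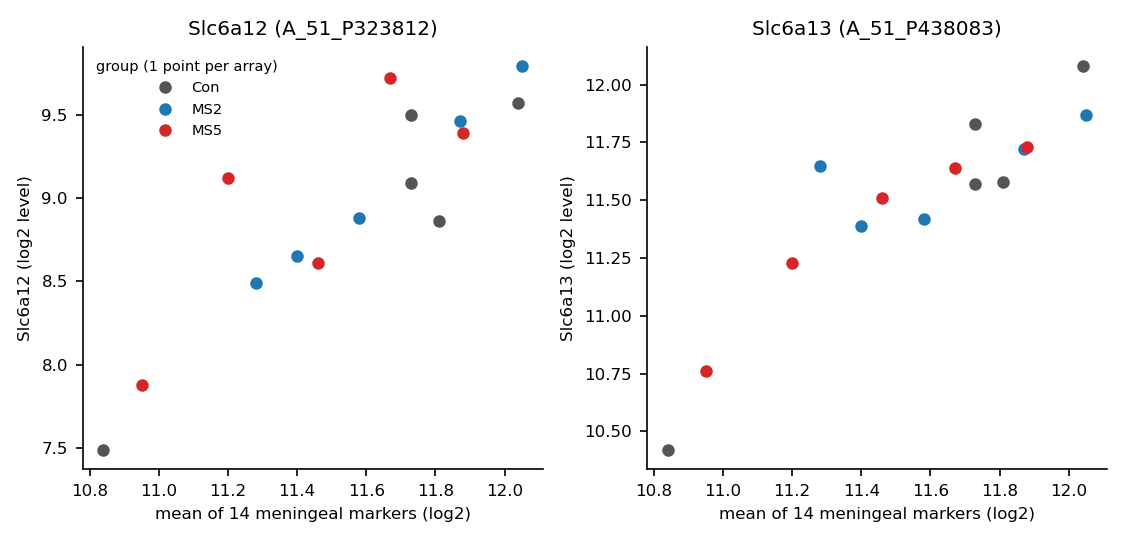
Log2 level of Slc6a12 and Slc6a13 against the mean log2 level of 14 meningeal markers, 1 point per array, coloured by group (5 arrays each). Con replicate 19 and MS5 replicate 8, at marker means of 10.84 and 10.95, hold the lowest values of both genes (7.49 and 7.88, 10.42 and 10.76).

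The glycine transporter Slc6a9 (GlyT1), which sets the glycine level around NMDA receptors and is dense in brainstem, diencephalon and glia, was read by 2 probes that overlap. They share 51 bases, and the second starts 9 bases after the first, at chr4:117541842-117541901 and chr4:117541851-117541910 (plus strand, mm9). The shared bases are in capitals in the 30 bases shown, so that the probes are no independent readings.
Slc6a9 A_55_P1973838: gcccagtgtGTGCAGAACTAGGGTTTTAAA
Slc6a9 A_55_P2010788: GTGCAGAACTAGGGTTTTAAAGTCCGTAGG

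Slc6a9 at A_55_P1973838 was at 13.37, 13.37, 13.40, 13.44 and 13.85 in Con. It was at 13.20, 13.28, 13.38, 13.69 and 15.09 in MS2 and at 13.33, 13.64, 13.72, 14.01 and 14.10 in MS5. The high MS2 value was that of replicate 4, the high Con value that of replicate 19, and the low MS5 value that of replicate 9. The difference of MS5 from Con was 0.27 (SE 0.29, p = 0.36, exact p = 0.135), and 0.38 (95% interval 0.10 to 0.66) without MS2 replicate 4 and MS5 replicate 9. The overlapping probe gave 0.26 with all arrays and 0.38 without these 2.

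The level of Slc6a9 and that of the hypothalamus and thalamus markers had the same order over the 5 MS5 arrays. Replicate 8 had a marker mean of 9.53 and Slc6a9 at 14.10. Replicates 14, 12 and 13 had marker means of 9.12, 9.08 and 8.71 and Slc6a9 at 14.01, 13.72 and 13.64. Replicate 9 was lowest in both, at 8.26 and 13.33. In Con the markers ran from 8.08 to 8.59, and replicate 19 was highest in both (8.59 and 13.85). Of the 14 markers, 11 were well above background on all arrays and Pmch, Sim1 and Gbx2 on some. In MS5 against Con 4 had p under 0.05 by limma and a higher mean (Trh, Avp, Oxt and Sim1) and none a lower one. With 1 probe per gene, 4.24% of all genes were called. Their exact p was 0.0476 (Trh), 0.119 (Avp), 0.143 (Oxt) and 0.00794 (Sim1). The paper reports Trh and Avp as raised in MS5 on these same arrays, so this count is no independent test. Sim1 was not well above background on any Con array and on 1 of 5 MS5 arrays, with means of 5.79 and 6.01. The part of neighbouring brain regions in Slc6a9, Slc6a11 and the monoamine transporters was not tested.

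The monoamine transporters Slc6a3 and Slc6a4 take dopamine and serotonin back into the terminals that release them, and their cell bodies lie outside the hippocampus. Both were dominated by the library labelled MS2 replicate 4. Their probes are at chr13:73715973-73716032 and chr11:76845777-76845836 of mm9, both on the plus strand.
Slc6a3 A_51_P214187: tggctgagaagaatcaggtttaccatctcc
Slc6a4 A_55_P2074942: ctccgggcccattacaaactatataaatgg

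Slc6a3 was at 7.79, 7.86, 7.88, 8.06 and 8.14 in Con and at 7.60, 7.86, 8.00, 8.15 and 8.64 in MS5. In MS2 it was at 7.67, 7.83, 7.90 and 8.19 on 4 arrays and at 12.36 on replicate 4, the array on which Th was also highest. The difference of MS2 from Con was 0.84 (95% interval -0.61 to 2.29) with that array and -0.05 (-0.40 to 0.31) without it. Its SD within groups was higher than that of 99.9% of all probes.

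Slc6a4 was at 6.19, 6.22, 6.27, 6.29 and 6.65 in Con. In MS2 it was at 6.07, 6.13, 6.20, 6.37 and 9.32, again highest on replicate 4, and in MS5 at 6.19, 6.25, 6.48, 7.69 and 7.81. The 2 high MS5 arrays were replicates 8 and 13, and these were the only MS5 arrays on slide 1. Over all arrays the difference of MS5 from Con was 0.56 (SE 0.54, p = 0.318, exact p = 0.262). Within slide 1 it was 1.51 (2 against 3 arrays, 95% interval 1.33 to 1.70, adjusted p = 0.00182 by limma). Within slide 2, where the MS5 arrays were at 6.19, 6.25 and 6.48, it was -0.15 (-2.23 to 1.93). MS2 replicate 4, at 9.32, lies on slide 2 and enters the shared spread of that fit, but not of the fit within slide 1. Without MS2 replicate 4 and MS5 replicate 9 the MS5 minus Con difference was 0.73 (0.14 to 1.32). The order of Slc6a4 over the MS5 arrays was not that of the hypothalamus and thalamus markers. Replicates 8 and 13, high in Slc6a4, had marker means of 9.53 and 8.71, and replicates 12 and 14, with Slc6a4 at 6.25 and 6.48, had 9.08 and 9.12.

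**Figure D4:**
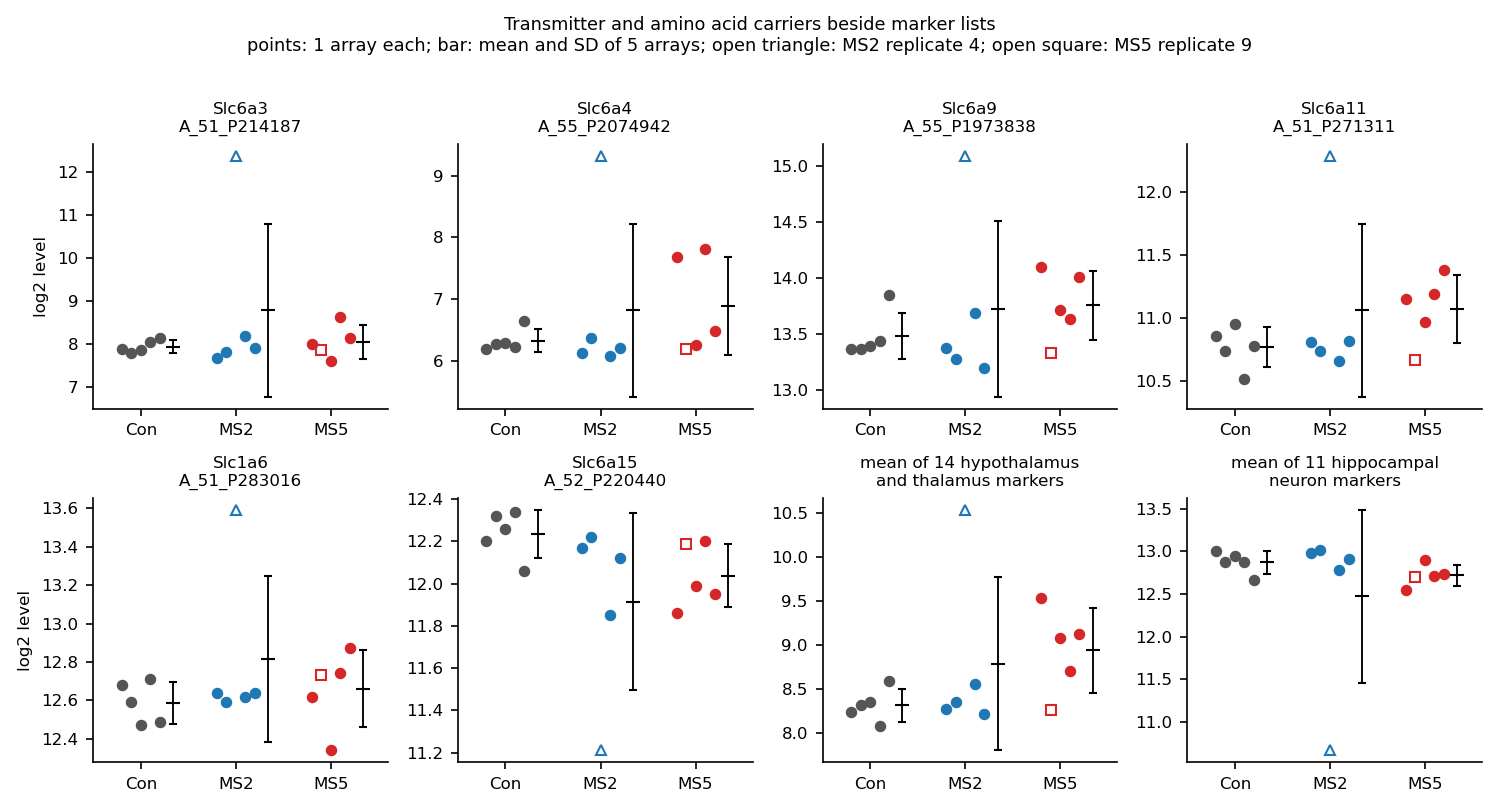
Log2 level of 6 transporters on each of the 15 arrays, beside the mean level of 14 hypothalamus and thalamus markers and of 11 hippocampal neuron markers, with the mean and SD of each group (5 arrays per group). MS2 replicate 4 (open triangle) is highest for Slc6a3 (12.36), Slc6a4 (9.32), Slc6a9 (15.09), Slc6a11 (12.28) and Slc1a6 (13.59), lowest for Slc6a15 (11.21), highest in the first marker mean and lowest in the second.

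MS2 replicate 4 was the extreme array for much of the whole set. It was the highest or the lowest of the 15 arrays at 38 of the 61 member probes above background (62.3%), against 36.7% of all probes above background. At 27 of the member probes it was highest and at 11 lowest. The next most extreme was MS2 replicate 5, the dim array, with 20 probes (32.8%, against 26.9% of all).

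The SLC6 carriers of other solutes stayed close to Con. Slc6a6, the taurine transporter, differed by 0.07 in MS5, Slc6a7, the proline transporter of glutamatergic terminals, by 0.01 and Slc6a8, the creatine transporter, by -0.03. Slc6a17 (NTT4), which loads neutral amino acids into synaptic vesicles, differed by 0.04. The orphan carrier Slc6a16 differed by 0.15 (95% interval -0.22 to 0.53) and was highest on MS2 replicate 4, at 8.85 against 7.69 to 8.19 on the other 14 arrays.

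Slc6a15 (B0AT2), a neuronal carrier of branched-chain amino acids and proline, was at 12.06, 12.20, 12.26, 12.32 and 12.34 in Con. It was at 11.21, 11.85, 12.12, 12.17 and 12.22 in MS2 and at 11.86, 11.95, 11.99, 12.19 and 12.20 in MS5. The lowest array was MS2 replicate 4, where the hippocampal neuron markers were lowest too. The difference was -0.20 for MS5 minus Con (p = 0.218, exact p = 0.0556) and -0.32 for MS2 minus Con (95% interval -0.65 to 0.01). Without MS2 replicate 4 these were -0.20 (-0.38 to -0.02) and -0.15 (-0.34 to 0.04). The neuron marker mean ran from 12.66 to 13 in Con and from 12.55 to 12.90 in MS5, with none of the 11 called, and its part was not tested.

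The SLC1 carriers other than the glial glutamate transporters had no call. Slc1a1 (EAAT3), the neuronal transporter of glutamate and cysteine, differed from Con by 0 in MS5 (95% interval -0.15 to 0.15) and by 0.06 in MS2. The neutral exchangers Slc1a4 (ASCT1) and Slc1a5 (ASCT2, at A_51_P453475) differed by -0.05 and -0.07 in MS5. Slc1a6 (EAAT4), known from cerebellar Purkinje cells, was at 13.59 on MS2 replicate 4 against 12.34 to 12.87 elsewhere. Its difference of MS2 from Con was 0.23 with that array (95% interval -0.12 to 0.58) and 0.04 without it (-0.15 to 0.22).

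Of the SLC38 glutamine carriers, Slc38a5 (SNAT5), through which glial cells release glutamine and which also carries serine and glycine, was lower in MS5 than in both other groups. It is X-linked, and its probe lies at chrX:7857241-7857300 (plus strand, mm9).
Slc38a5 A_55_P2010641: cctagatgaagctgttagggttaccctggc

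The Slc38a5 levels were 12.88, 12.91, 12.93, 13 and 13.05 in Con and 12.82, 12.85, 12.96, 12.98 and 13.13 in MS2. In MS5 they were 12.71, 12.80, 12.81, 12.84 and 12.84. All MS5 arrays were below all Con arrays, as for 0.526% of all probes, but overlapped with the lowest MS2 array (12.82). The difference was -0.15 for MS5 minus Con (SE 0.06, 0.9-fold, p = 0.0157, exact p = 0.00794) and -0.15 for MS5 minus MS2 (p = 0.0187, exact p = 0.0317). MS2 minus Con was 0.00 (95% interval -0.12 to 0.11). The MS5 minus Con difference had p under 0.05 with any 1 array left out, MS5 replicate 9 included, and ranged from -0.17 to -0.13. Within slide 1 it was -0.12 (95% interval -0.27 to 0.02) and within slide 2 -0.16 (-0.42 to 0.09). The difference from MS2 lost its call without MS2 replicate 5 or MS5 replicate 12, with a range of -0.18 to -0.10.

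The lysosomal arginine sensor Slc38a9, which signals to mTORC1, had 3 probes, of which 2 were higher in MS5 than in MS2. At A_55_P2382110 the MS2 arrays were at 9.45, 9.45, 9.55, 9.59 and 9.74, the MS5 arrays at 9.62, 9.63, 9.67, 9.80 and 9.95 and the Con arrays at 9.49, 9.54, 9.58, 9.58 and 9.73. The MS5 minus MS2 difference was 0.18 (SE 0.07, p = 0.0247, exact p = 0.0635) and MS5 minus Con was 0.16 (p = 0.05, exact p = 0.0873). Groups overlapped, in that MS2 replicate 7 (9.74) lay above 3 MS5 arrays. The call was lost without MS2 replicate 3 or 5 or MS5 replicate 9 or 13, with a range of 0.13 to 0.23.

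At A_52_P578768 the Slc38a9 levels were 11.07, 11.13, 11.16, 11.20 and 11.28 in MS2 and 11.25, 11.26, 11.28, 11.29 and 11.38 in MS5. The difference was 0.12 (p = 0.0473, exact p = 0.0238), and 10 of the 15 leave-one-out fits had p above 0.05 (range 0.10 to 0.15). These 10 left out Con replicate 15 or 17, MS2 replicate 1, 3, 5 or 7, or MS5 replicate 8, 9, 12 or 14. The remaining probe of Slc38a9, A_52_P356228, gave 0.09 (95% interval -0.07 to 0.25). All 3 probes were above Con in MS5, by 0.12 to 0.16, and none of these differences had p under 0.05.

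Slc38a11, a carrier of this family whose substrate is little known, was lower in MS5 at 1 of 2 probes. At A_55_P2077741 the Con arrays were at 7.99, 8.09, 8.22, 8.32 and 8.41 and the MS5 arrays at 7.89, 7.97, 7.99, 8.08 and 8.16. The groups overlapped, and the difference was -0.19 (p = 0.0363, exact p = 0.0635). Without MS5 replicate 9 it was -0.16 (95% interval -0.34 to 0.03). It also had p above 0.05 without Con replicate 15, 17 or 18 or MS5 replicate 12 or 14, with a range of -0.24 to -0.14. The other probe of Slc38a11, A_55_P2147776, gave -0.05 (-0.19 to 0.09).

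The main glutamine carriers of neurons and astrocytes had no call. Slc38a1 (SNAT1) of neurons differed from Con in MS5 by 0 to 0.06 over its 3 probes, Slc38a2 (SNAT2), which amino acid starvation raises, by 0.05 and Slc38a3 (SNAT3) of astrocytes by -0.14 (95% interval -0.33 to 0.06). Slc38a10 differed by 0.15 (-0.07 to 0.38).

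Slc36a1 (PAT1), the proton-coupled carrier of glycine, alanine and proline on lysosomes, was higher in both treated groups at 1 of its 2 probes, while the other had no call. The called probe lies on the plus strand at chr11:55046103-55046162 of mm9.
Slc36a1 A_55_P2000269: gcgactcctctaccaattccaccagtgcct

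At the Slc36a1 probe A_55_P2000269 the Con arrays were at 7.01, 7.06, 7.09, 7.16 and 7.20. The MS2 arrays were at 7.21, 7.23, 7.23, 7.24 and 7.49 and the MS5 arrays at 7.18, 7.18, 7.24, 7.26 and 7.29. All MS2 arrays were above all Con arrays, as for 0.309% of all probes, by 0.01 at the closest, and MS5 overlapped with the highest Con array. The highest value was that of the dim array, MS2 replicate 5. The difference was 0.18 for MS2 minus Con (SE 0.05, p = 0.00583, exact p = 0.00794) and 0.13 for MS5 minus Con (p = 0.0375, exact p = 0.0238). The MS2 difference had p under 0.05 with any 1 array left out (0.12 to 0.20). The MS5 difference lost its call without Con replicate 15, 18 or 19 or MS5 replicate 8, 13 or 14, with a range of 0.10 to 0.15, and also with the slide as a block (0.12) and within slide 2 (0.08). Within slide 2, where the MS2 arrays were replicates 4 and 5 only, the MS2 difference was 0.23 and had p above 0.05. Slc36a2, which carries glycine and proline, differed from Con by 0.13 in MS5 (-0.13 to 0.39).

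By family, the median difference of MS5 from Con was -0.01 for the 6 SLC1 probes, -0.02 for the 2 SLC3 probes, 0.06 for the 20 SLC6 probes and -0.03 for the 18 SLC7 probes. It was 0.08 for the 7 SLC36 probes, 0 for the 16 SLC38 probes and -0.07 for the 3 SLC43 probes. The span was widest in SLC6, from -0.20 to 0.56, where Slc6a4 set the upper end.

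The amino acid response raises many of these carriers when amino acids run short, through the factor ATF4. Of 28 genes of that response, 3 had p under 0.05 in MS5 against Con, where 4.24% of all genes did with 1 probe per gene. Ddit3 (CHOP), a partner of ATF4, was 0.16 above Con (p = 0.0393, exact p = 0.0952). Gpt2, a mitochondrial alanine transaminase, was 0.17 above Con (p = 0.0322, exact p = 0.00794). Atf3 was 0.18 below Con, at a mean of 7.21 ± 0.16 (SD) against 7.39 ± 0.06 (limma p = 0.0174, exact p = 0.0556, n = 5 per group). In MS2, Eif4ebp1 and Atf3 had differences of -0.29 (exact p = 0.0556) and -0.15 (exact p = 0.00794), and 3.94% of all genes were called. The median over the list was -0.02 in MS5 and 0 in MS2.

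Other parts of amino acid handling had few calls. Of 15 genes of glutamate, glutamine and GABA metabolism, 1 was called in MS5, Pycr1 of proline synthesis (-0.18, exact p = 0.0556). Of 19 genes of amino acid sensing by mTORC1, Rptor, the raptor subunit, was called in MS5 (-0.08, exact p = 0.0238) and Nprl3, a subunit of the GATOR1 complex, in MS2 (0.32, exact p = 0.0238). Against MS2, where 3.89% of all genes were called, MS5 had Rptor at -0.10 (exact p = 0.0159), Flcn at -0.11 (exact p = 0.0714), Gpt2 at 0.17 (exact p = 0.0873) and Dld, of the glycine cleavage system, at 0.10 (exact p = 0.0476). Dld was the single call among 7 genes of glycine and serine metabolism. Of 17 other carriers of amino acids and transmitters, only Slc6a20b was called, in MS2 (0.12, exact p = 0.0714), at a probe well above background on 6 of 15 arrays. Called here means an unadjusted limma p under 0.05. None of the genes of these 5 lists passed 1.5-fold with p under 0.05, which 0.279%, 0.0304% and 0.163% of all genes did in MS5 against Con, MS2 against Con and MS5 against MS2.

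ATF4 and C/EBP factors bind an element of the form TGATGNAA, which was searched on both strands in RefSeq promoter windows (GRCm38.p6) that run from 250 bases before to 50 after each start site. Windows were at hand for 39 of the 57 genes. It was found in 3 of these genes (7.69%), against 4.51% of all 27025 genes with a window. Slc1a4, Slc7a7 and Slc7a11 held it, and the matches are shown in capitals with 12 bases on each side, on the gene's strand, since Slc7a7 is among the called genes.
Slc1a4, chr11:20332698-20332729, minus strand: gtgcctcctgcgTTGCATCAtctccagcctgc
Slc7a11, chr3:50443660-50443691, minus strand: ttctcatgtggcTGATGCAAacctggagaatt
Slc7a11, chr3:50443641-50443672, minus strand: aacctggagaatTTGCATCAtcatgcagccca
Slc7a7, chr14:54417926-54417957, minus strand: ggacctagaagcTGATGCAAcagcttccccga
Slc7a7, chr14:54418066-54418097, minus strand: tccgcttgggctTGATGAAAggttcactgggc

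The differences of these 3 genes from Con were -0.05 (Slc1a4), -0.15 (Slc7a11) and -0.21 (Slc7a7) in MS5, with a median of -0.15 (median -0.12 in MS2). The 36 genes without a match had a median of 0.01 in MS5, from -0.19 to 0.56, and 0.03 in MS2. A match is a description of the sequence and does not show binding.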

How the data were processed

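Hippocampal RNA of 15 mice was hybridised to 1-colour Agilent mouse 8x60k arrays. The scanner files hold spot intensities, as deposited by the authors, extracted with Feature Extraction 10.7.1.1 and not normalized between arrays. The log2 values of the series table are those of the authors after normexp background adjustment and quantile normalization. Here normexp (offset 50) was run on the mean spot signal and the median background signal of each spot. Then 62976 spots were quantile normalized, control spots were dropped and spots of a probe were averaged. The result equalled the authors' log2 values to within 5e-09 at the 70 member probes with 1 spot, and to within 0.152 at the 2 with 10 spots.

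The 3 contrasts were tested in 1 limma fit (limma 3.58.1, R 4.3.3) over all 55681 probes, with Benjamini-Hochberg adjustment over all of them. Intervals are 95% intervals of that fit. The fits within a slide or without arrays were made on the arrays that were kept. The exact two-sided permutation test used the 252 assignments of 5 against 5 arrays, and cannot give p below 0.00794. The study's threshold was more than 1.5-fold with unadjusted p under 0.05. The number of arrays limits the precision. A probe's level was not set against that of another probe.

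The members and all gene lists were chosen with earlier results of these data known. The rule for naming took 38 member genes: those called at any probe, the 8 highest and 8 lowest MS5 minus Con differences among genes above background, and a list by role. From the pathway lists every called gene was named, which goes beyond the rule of 1 gene per list and was done after the values were seen. Marker lists covered choroid plexus, meninges, hypothalamus and thalamus, principal neurons, interneurons, astrocytes, oligodendrocytes, microglia, endothelium and blood. Of the 72 probe accessions 71 matched a RefSeq transcript, all with the same symbol. Probe sequences and mm9 positions come from the array files, which do not say in which exon a probe lies. Alternatives were another offset, the processed signal, the authors' values, a filter on dim probes, array weights, slide as a block or within slides, only the groups compared, flagged spots left out, 1 probe or the probe mean per gene, and each array left out. The 9 miR arrays were not used. Of the named genes 1, and the sequence of 1 further probe, are not reported here.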

Additional observations from a re-analysis of the deposited data

Results flagged for a closer look

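Of 111 groups of 5 arrays tested over the named genes, 10 held an array far from the other 4 (a gap to its nearest neighbour of over 0.71 of the group's range). Chance gives about 1 in 20 for a single group. The genes were read on the same arrays, so the 111 groups are not independent and the count is only a description. The library labelled MS2 replicate 4 accounted for 6 of them. On it Slc6a3 was at 12.36 (next highest MS2 array 8.19), Slc6a4 at 9.32 (6.37), Slc6a9 at 15.09 (13.69), Slc6a11 at 12.28 (10.82), Slc1a6 at 13.59 (12.64) and Slc6a16 at 8.85 (7.96). Con replicate 19 accounted for 3, with Slc6a4 at 6.65 (next highest Con array 6.29), Slc6a8 at 14.3 (14.01) and Slc6a9 at 13.85 (13.44). The dim array, MS2 replicate 5, was low for Slc1a1, at 12.81 against 13.04 for the next lowest MS2 array. All values are log2 levels.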

How the results depend on the processing

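No direction of a called probe reversed under any of the alternatives. In MS5 against Con, the 6 member probes with unadjusted p under 0.05 became 13 within slide 1, 2 within slide 2, 3 with 1 probe per gene and 13 without both MS2 replicate 4 and MS5 replicate 9, an alternative chosen after seeing the data. The share of all probes called moved too, from 3.91% to 7.79%, 3.44%, 4.09% and 5.72% in these settings, in this order. With each array left out in turn the count ran from 4 (without Con replicate 18) to 10 (without MS2 replicate 4), and the median difference from -0.003 to 0.019. Without these arrays 3.15% and 5.92% of all probes were called. In MS2 against Con, the 4 probes became 2 with array weights, 7 with the slide as a block, 2 within slide 1, 1 with 1 probe per gene, 2 with the mean of a gene's probes and 2 without both arrays, where the median was -0.009. Leaving out 1 array gave 2 (without MS2 replicate 4) to 7 (without Con replicate 15 or MS2 replicate 5), with medians from -0.009 to 0.038. In MS5 against MS2, the 3 probes became 1 with the processed signal, 9 with array weights, 7 within slide 1 and 10 without both arrays, and the median within slide 1 was 0.005. The shares of all probes were 3.05%, 9.7%, 8.29% and 5.86% in this order, and 3.97% in the main fit. Leaving out 1 array gave 1 (without MS2 replicate 5) to 11 (without MS2 replicate 4), with medians from -0.033 to 0.006. Without these arrays 4.66% and 6.79% of all probes were called. Fits within a slide or without an array use fewer arrays, and fits with 1 value per gene use fewer probes. The cause of the other changes was not tested.

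Over all alternatives, an adjusted p under 0.05 was reached by 1 member probe, that of Slc6a4, only within slide 1 (0.00182 in MS5 against Con, 0.00178 in MS5 against MS2). More than 1.5-fold with p under 0.05 was reached by 1 member probe in MS5 against Con (within slide 1, and without both arrays). In MS2 against Con 1 probe reached it, within slide 2, where the MS2 arrays were replicates 4 and 5 only. In MS5 against MS2 up to 2 did (offset 0, within slide 1, without MS2 replicate 4, and without both arrays). With 1 probe per gene, the called probes of Slc7a5 and Slc36a1 were not the ones kept. No higher call of a member was then left in either comparison with Con. Calls of single probes were lost as follows, beside those lost when 1 array was left out. For MS5 minus Con, Slc7a5 lost its call within slide 2 (range 0.27 to 0.46), Slc7a7 within slide 1 (-0.31 to -0.10), Slc38a5 with the processed signal and within either slide (-0.17 to -0.12), Slc38a11 with the processed signal, within slide 2 and without both arrays (-0.24 to -0.09), and Slc36a1 with the filter on dim probes, the slide as a block and within slide 2 (0.08 to 0.29). For MS2 minus Con, Slc36a1 lost its call within slide 2 (0.12 to 0.34), Slc7a5 with the processed signal, array weights, only the 2 groups compared, within either slide and without both arrays (0.16 to 0.50), and Slc7a7 with these settings other than the fit of only 2 groups, and with offset 0 and the filter on dim probes (-0.27 to -0.09). For MS5 minus MS2, Slc38a5 lost it with offset 0, the processed signal and within either slide (-0.20 to -0.09), and both Slc38a9 probes within either slide (0.10 to 0.15 and 0.13 to 0.24). The Slc38a9 probe A_52_P578768 also lost it with offset 0, the processed signal and the filter on dim probes, and A_55_P2382110 without both arrays. No paired analysis was possible because the replicate numbers are those of single animals and no number is shared between groups. In the paper, treated pups shared a home cage with untreated littermates, and experiments were repeated to fill the groups. The labels give neither litter nor experiment, so neither could be taken into account.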

Other observations

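The marker lists of other tissues and cell types gave these values. The choroid plexus list had a median log2 difference of -1.25 for MS5 minus Con and -0.24 for MS2 minus Con. Of its 20 markers, 18 and 0 were called in these comparisons at unadjusted p under 0.05, and 15 were called lower in MS5 than in MS2. The list holds genes that the paper reports as lower in MS5 on these same arrays. With 1 probe per gene, 4.24%, 3.94% and 3.89% of all genes were called in MS5 against Con, MS2 against Con and MS5 against MS2. Its mean level was lowest on MS5 replicates 14 (8.76) and 9 (9.58), and on the other 3 MS5 arrays it was 10.79, 11.33 and 11.52. In MS5 against Con, 1 of 10 astrocyte markers, 2 of 10 markers of brain endothelium and 1 of 8 blood markers were called lower. None of these was called higher, and none of 11 oligodendrocyte and 12 interneuron markers was called. So few calls in such short lists are not read as a change of a cell type. In MS2 against Con no marker of any of the 10 lists was called. In MS5 against MS2, beside the choroid plexus, 1 marker each of meninges and endothelium was called lower. In the same comparison 1 of hypothalamus and thalamus was called higher (Sim1, at a level where most arrays were not well above background).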
